A study of Vitis labrusca and Vitis cinerea and Vitis acerifolia with 56 samples.

Results

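The subject is a set of 3 grape genes that decorate finished anthocyanins: AOMT (VIT_01s0010g03510) and AOMT2 (VIT_01s0010g03490), which encode anthocyanin O-methyltransferases, and 3AT (VIT_03s0017g00870), which encodes an anthocyanin acyltransferase. They were chosen by gene identifier from the 29971 genes of the deposited table, and all 3 were measured. RNA of berries had been sequenced in 56 libraries labelled with 3 species: V. labrusca (24 libraries, whose cultivar entry is a hybrid of grapevine V. vinifera and V. labrusca), V. cinerea (22 libraries) and V. acerifolia (10 libraries), the last 2 entered as wild species. Clusters had hung in sunlight or inside boxes wrapped in aluminium foil, and the boxes were left on until pre-veraison, until veraison or throughout. The study describes V. labrusca as needing sunlight to accumulate anthocyanins and the other 2 species as not needing it, and the comparisons ask how the 3 genes behaved in each. Berries were taken as young berries, at pre-veraison (2 weeks before veraison), at veraison (the onset of ripening and colour), 2 weeks after veraison and at maturity. At harvest a cluster was in sunlight, still boxed, or re-exposed because its box had been removed earlier. The V. labrusca libraries comprised 8 from sunlight, 6 from boxes and 8 from re-exposed clusters. For V. cinerea these numbers were 7, 5 and 8, for V. acerifolia 3, 3 and 4, and both V. labrusca and V. cinerea had 2 more libraries of young berries. Of the 35 groups by species, stage and treatment, 21 held 2 libraries and 14 held 1, and V. acerifolia had no replicates.

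Anthocyanins are the red, purple and blue pigments of berry skins. Their coloured core is made by dihydroflavonol reductase (DFR) and leucoanthocyanidin dioxygenase (LDOX) and is stabilised with glucose by the glucosyltransferase UFGT. O-methyltransferases such as AOMT then turn hydroxyl groups of the pigment ring into methoxyl groups, which leads to peonidin, petunidin and malvidin derivatives and shifts colour towards purple. Acyltransferases such as 3AT attach an organic acid to the sugar, which makes the pigment more stable. In red grapevine cultivars the branch is switched on at veraison by the MYBA regulators, and the pigments are carried into the vacuole with the help of GST4, a glutathione S-transferase, and of the transporters AM1 and AM3. The names of these genes come from the literature on grapevine and were not checked against an annotation here. AOMT and AOMT2 are near copies, so the division of reads between them is uncertain.

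Values are FPKM, that is, sequenced fragments scaled to transcript length and library total, so that levels can be compared between genes. A library's FPKM summed to between 764972 and 1882690, and the read depth is unknown. In 3 V. labrusca libraries, called sparse here, 11880 to 14509 genes were above 0, against 16683 to 19989 in the other 53. Each is a replicate 1: of young berries, of sunlight berries at veraison, and of berries uncovered at pre-veraison and picked 2 weeks past veraison. Genes private to a species followed the labels in all 25 libraries taken up to veraison but went against them in 9 of the 31 taken later. These 9 libraries are called doubted here. They are, at maturity, V. acerifolia in sunlight, boxed until pre-veraison and boxed until veraison, V. cinerea in sunlight replicate 1, V. labrusca in sunlight replicate 2 and V. labrusca boxed until pre-veraison replicate 2. The others, taken 2 weeks after veraison, are V. cinerea boxed until pre-veraison replicates 1 and 2, and V. cinerea boxed until veraison replicate 2. A label was judged by the species whose private genes had the highest share on, and in these 3 the margin was small. They had 19.9% to 22.9% of the V. acerifolia genes on, 13.6% of the V. labrusca and 7.69% of the V. cinerea ones. Mature V. acerifolia boxed throughout, not counted as doubted, had nearly the same shares (21.4%, 13.6% and 7.69%). A further pair of V. labrusca libraries, replicate 2 of the veraison sunlight and veraison boxed berries, carries a stage entry that conflicts with the title. Nothing in the labels says that replicates were separate vines, so p-values measure the spread between these samples, which may be technical. Where libraries of different groups are said not to overlap, the share of all genes that did likewise was counted only for ratios to UFGT.

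All 3 genes were low before veraison, and AOMT and 3AT were on in every library after it, while AOMT2 reached at least 1 FPKM in 24 of those 31 libraries. In the 13 young berry and pre-veraison libraries AOMT lay between 0 and 5.88 FPKM (median 0.966, 4 libraries at 0), AOMT2 between 0 and 1.20 FPKM (8 libraries at 0) and 3AT between 0 and 3.75 FPKM (median 0.642, 3 libraries at 0). In the 43 libraries from veraison on, the medians were 12.8 FPKM for AOMT, 1.77 FPKM for AOMT2 and 29.9 FPKM for 3AT. From veraison on, AOMT and 3AT reached at least 1 FPKM in 40 libraries each, and AOMT2 did in 31. The exceptions for AOMT were the 3 V. acerifolia veraison libraries, where AOMT and AOMT2 were both listed at 0 and 3AT stood between 0.801 and 2.36 FPKM. Those for 3AT were 2 V. cinerea veraison libraries, at 0.433 and 0.820 FPKM, and the V. acerifolia veraison sunlight library, at 0.801 FPKM. Each library comes from bulk berry tissue, in which fewer cells of a type cannot be told apart from less RNA per cell.

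**Figure D1:**
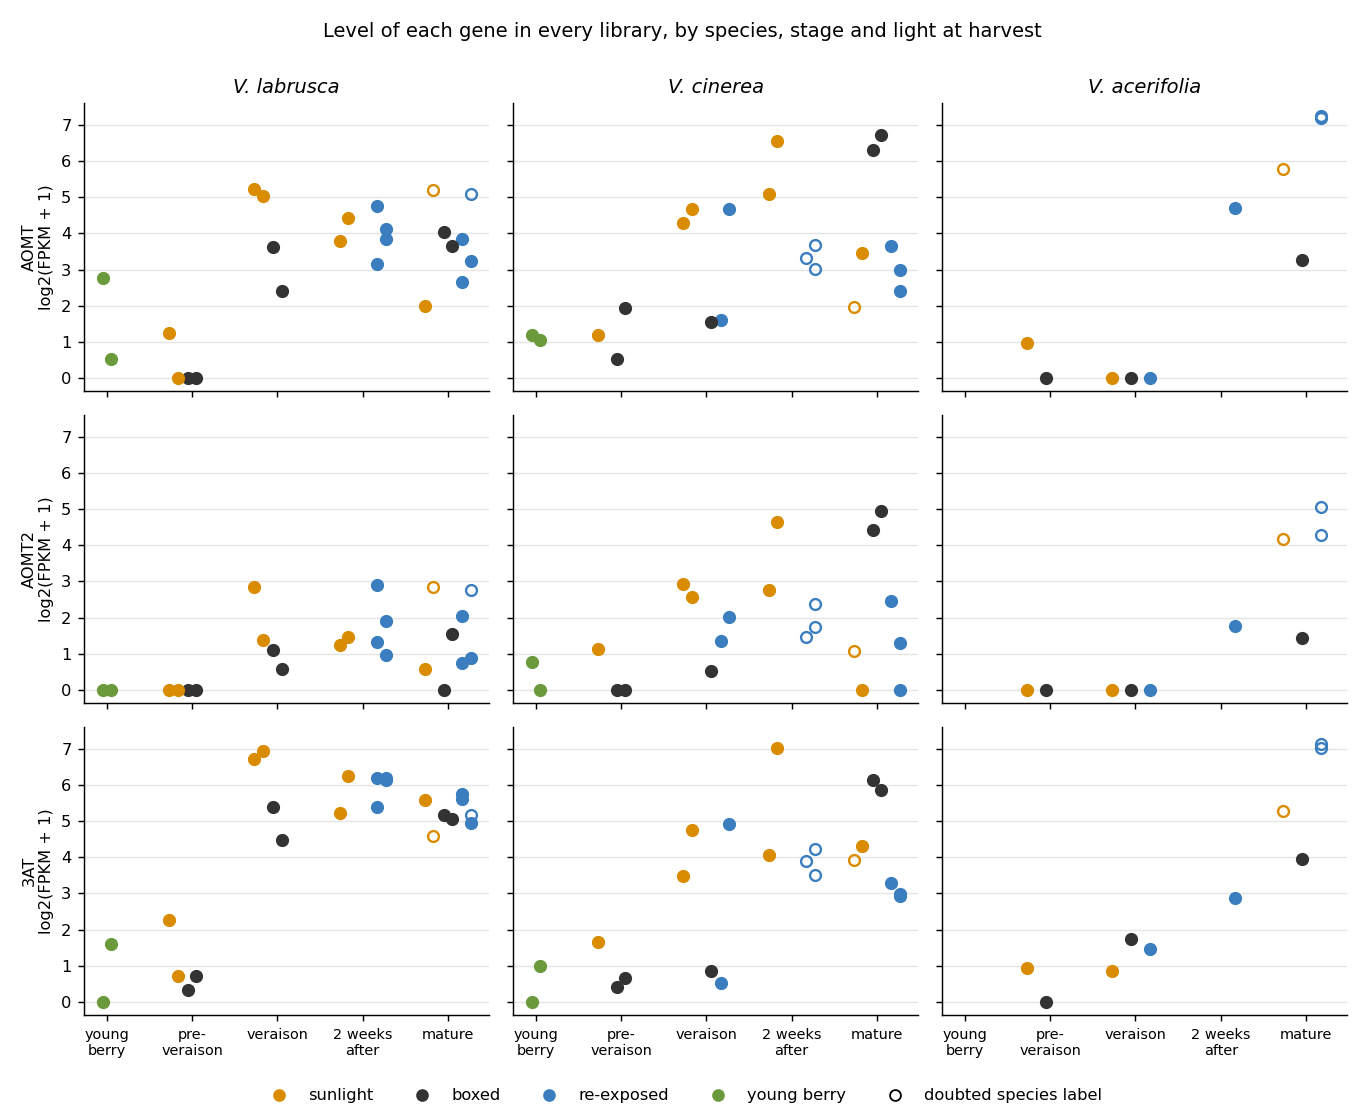
Level of AOMT, AOMT2 and 3AT in each of the 56 libraries (FPKM on a log2(FPKM + 1) axis), by species and stage, with symbols for light at harvest. Levels are near the floor before veraison and rise from veraison on, except in V. acerifolia, where they are high only after veraison.

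In V. labrusca the genes were on at veraison, and 3AT was the most abundant of them. Sunlight berries at veraison held 3AT at 103 and 121 FPKM, AOMT at 36.2 and 31.9 FPKM and AOMT2 at 6.15 and 1.59 FPKM. Boxed berries at veraison held 3AT at 41.1 and 21.1 FPKM, AOMT at 11.3 and 4.31 FPKM and AOMT2 at 1.15 and 0.489 FPKM. At this stage each of the 3 genes was lower in both boxed libraries than in both sunlight libraries, a separation whose share over all genes was not counted. Of these libraries, sunlight replicate 1 is sparse, and replicate 2 of both groups carries the conflicting stage entry. The sunlight group at veraison had the highest 3AT level among the V. labrusca groups (112 ± 12.7 FPKM, SD, n = 2), followed by the berries boxed until pre-veraison and picked 2 weeks past veraison (69.9 ± 1.96 FPKM, SD, n = 2). The next groups in order, boxed until veraison (56.6 ± 22.0 FPKM, SD, n = 2) and sunlight (55.6 ± 27.7 FPKM, SD, n = 2), both taken 2 weeks after veraison, did not differ beyond their spread. For AOMT the order again began with veraison sunlight (34.0 ± 3.05 FPKM, SD, n = 2). The 4 groups after it, from 16.6 to 19.7 FPKM, had SDs of 5.47 to 23.2 FPKM and overlapped. Over the 14 V. labrusca libraries after veraison AOMT lay between 2.97 and 35.8 FPKM (median 13.4), AOMT2 between near 0 and 6.52 FPKM (median 1.65) and 3AT between 22.8 and 75.2 FPKM (median 43.9).

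In V. cinerea the levels were less even between replicates. At veraison AOMT was at 18.4 and 24.6 FPKM in sunlight, 2.08 and 24.3 FPKM after boxing until pre-veraison, and 1.96 FPKM in the single boxed library. 3AT followed the same division, at 10.2 and 25.9 FPKM in sunlight, 0.433 and 29.2 FPKM after re-exposure and 0.820 FPKM in the box. Replicate 1 of the re-exposed group thus resembled the boxed library in level, and replicate 2 the sunlight libraries. AOMT2 was at 6.62 and 4.95 FPKM in sunlight, 1.56 and 3.05 FPKM after re-exposure and 0.433 FPKM in the box, with no overlap between the groups. The sunlight libraries taken 2 weeks after veraison differed widely, with 32.8 and 92.5 FPKM of AOMT, 5.79 and 24.0 FPKM of AOMT2, and 15.8 and 129 FPKM of 3AT. The 3 re-exposed libraries of that stage, all doubted, held 7.07 to 11.7 FPKM of AOMT and 10.3 to 17.6 FPKM of 3AT. Ordered by group, AOMT in V. cinerea was highest in mature berries boxed throughout (90.7 ± 18.6 FPKM, SD, n = 2) and next in sunlight berries 2 weeks after veraison (62.6 ± 42.2 FPKM, SD, n = 2), a pair that did not differ beyond its spread.

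In V. acerifolia the levels came on between veraison and the later stages. The library taken 2 weeks after veraison, from berries boxed until veraison, held 24.9 FPKM of AOMT, 2.43 FPKM of AOMT2 and 6.25 FPKM of 3AT. At maturity the library boxed throughout held 8.69, 1.74 and 14.4 FPKM of the same genes. The other 3 mature libraries are doubted. They held 54.3 (sunlight), 146 (boxed until pre-veraison) and 149 FPKM (boxed until veraison) of AOMT, 17.0, 32.5 and 18.4 FPKM of AOMT2, and 37.6, 138 and 128 FPKM of 3AT. Each gene's highest value in the series is among them, and even there AOMT ranked 1123 of the 17169 genes above 0, 3AT 1241 of 17108 and AOMT2 4259 of 17108.

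Ripening in sunlight was tested as mature minus pre-veraison sunlight berries, in limma on log2(FPKM + 1), a scale that understates the change of low genes. In V. labrusca AOMT stood at 1.38 and 0 FPKM before veraison and 2.97 and 35.8 FPKM at maturity, 3AT at 3.75 and 0.655 against 46.8 and 22.8 FPKM, and AOMT2 at 0 in both against 0.485 and 6.22 FPKM. The groups did not overlap for any of the 3 genes, but the share of all genes without overlap was not counted. AOMT rose by 2.97 (SE 0.96, adjusted p = 0.0315) and 3AT by 3.59 (SE 0.93, adjusted p = 0.00759), while AOMT2 did not pass the test (adjusted p = 0.106). So 2 of 3 passed as higher, against 4.89% of all genes tested (6.75% with median-ratio scaling of the libraries), and all 9 other genes of the anthocyanin branch in the list (MYBA1, MYBA2, MYBA3, UFGT, DFR, LDOX, GST4, AM1 and AM3) rose too, with a median log2 difference of 3.88 against -0.21 over all genes. The AOMT call rested on single libraries: it was 3.60 (adjusted p = 0.0559) without pre-veraison sunlight replicate 1, 2.34 (adjusted p = 0.232) without replicate 2, 1.36 (adjusted p = 0.514) without the doubted mature sunlight replicate 2. Leaving out the other mature sunlight library raised it to 4.57. The 3AT call was lost without pre-veraison sunlight replicate 2 (2.83, adjusted p = 0.117) and without mature sunlight replicate 1 (3.09, adjusted p = 0.0561). AOMT2 passed without mature sunlight replicate 1 (adjusted p = 0.0158).

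In V. cinerea sunlight berries, with 1 pre-veraison library, none of the 3 genes passed by limma, against 3.91% of genes higher and 14.6% lower (5.51% and 11.5% with median-ratio scaling). At an unadjusted p under 0.05 there was 1 of 3, beside 6328 of the 20333 genes tested. AOMT was at 1.29 FPKM before veraison and 2.88 and 10.0 FPKM at maturity, a difference of 1.51 (SE 1.18, adjusted p = 0.423). 3AT was at 2.15 FPKM and then 14.2 and 18.8 FPKM, a difference of 2.46 (SE 1.13, adjusted p = 0.137). AOMT2 was at 1.20 FPKM and then 1.11 and near 0 FPKM, a difference of -0.60 (SE 0.90, adjusted p = 0.736). The mature replicate 1 library is doubted. Without it the differences were 2.26 for AOMT, 2.65 for 3AT and -1.14 for AOMT2, and without replicate 2 they were 0.76, 2.27 and -0.059. Of the other 9 genes of the branch 3 rose. The V. labrusca minus V. cinerea difference of these changes did not pass for AOMT (1.46, SE 1.52, adjusted p = 0.741), AOMT2 (2.31, SE 1.16, adjusted p = 0.373) or 3AT (1.13, SE 1.46, adjusted p = 0.812), with 1.50% of all genes passing. At an unadjusted p under 0.05 there were 0 of 3, beside 2894 of all genes. The AOMT difference turned to -0.15 without V. labrusca mature sunlight replicate 2 and to -0.90 without the 9 doubted libraries, while leaving out 1 library moved AOMT2 between 1.17 and 3.45 and 3AT between 0.37 and 1.89.

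Berries that ripened entirely inside boxes also had more of these transcripts than boxed pre-veraison berries. In V. labrusca AOMT was listed at 0 in both pre-veraison boxed libraries and stood at 15.5 and 11.5 FPKM in the mature ones, a change that passed the test (adjusted p = 0.0296). 3AT stood at 0.253 and 0.642 FPKM before veraison and 34.7 and 32.1 FPKM at maturity, a rise of 4.58 (SE 0.93, adjusted p = 0.00635). AOMT2 was listed at 0 in both libraries, then near 0 and at 1.91 FPKM, and did not pass (adjusted p = 0.778). So 2 of 3 rose, against 0.787% of all genes tested, and 5 of the other 9 branch genes did. The AOMT call was lost without any one of the 4 libraries (adjusted p from 0.0769 to 0.212), and the 3AT call without replicate 1 of the pre-veraison boxed berries (4.39, adjusted p = 0.0845) or of the mature boxed ones (4.53, adjusted p = 0.0649).

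In V. cinerea all 3 genes rose in the boxes, against 2.03% of all genes. AOMT went from 0.438 and 2.81 FPKM to 77.5 and 104 FPKM, a rise of 5.28 (SE 0.96, adjusted p = 0.00141). 3AT went from 0.325 and 0.587 FPKM to 68.8 and 56.9 FPKM, a rise of 5.45 (SE 0.93, adjusted p = 0.000690). AOMT2 was near 0 in both pre-veraison libraries and reached 20.4 and 30.1 FPKM (adjusted p = 0.000312). The mature boxed libraries lay far above the pre-veraison ones for each gene, and the 3 calls held in all 13 alternatives tried, including each one without a library. None of these boxed libraries is doubted, sparse or conflicting, so leaving such libraries out could not move the differences, only their spread. The other branch genes rose in 8 of 9 cases, with a median log2 difference of 6.56.

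At maturity the effect of keeping the boxes on throughout was read against sunlight berries. In V. labrusca the AOMT values were 15.5 and 11.5 FPKM in boxed and 2.97 and 35.8 FPKM in sunlight berries, and the boxed libraries lay between the sunlight ones. 3AT was at 34.7 and 32.1 FPKM in boxed and 46.8 and 22.8 FPKM in sunlight berries, again within the sunlight range. AOMT2 was near 0 and at 1.91 FPKM in boxed and at 0.485 and 6.22 FPKM in sunlight berries. None of the 3 passed by limma, against 1.17% of all genes lower and 3.25% higher (1.57% and 2.06% with median-ratio scaling). None had an unadjusted p under 0.05, while 3978 of all genes did. The log2 differences were 0.25 for AOMT (SE 0.96, adjusted p = 0.975) and -0.94 for AOMT2 (SE 0.73, adjusted p = 0.526), while that of 3AT was 0.03 (SE 0.93, adjusted p = 1) and -0.18 with median-ratio scaling, so its sign depended on the scaling. Without the doubted sunlight replicate 2, AOMT was at 1.85, AOMT2 at 0.20 and 3AT at -0.47, and without sunlight replicate 1 AOMT was at -1.36. Of the other 9 branch genes in the same comparison 3 fell and none rose. These were LDOX (a difference of -2.70, adjusted p = 0.0294), the transporter gene AM3 (-1.85, adjusted p = 0.0499) and MYBA1 (-2.27, adjusted p = 0.0330). UFGT, at 34.8 and 33.1 FPKM in boxed against 127 and 131 FPKM in sunlight berries, had a difference of -1.90 that did not pass (adjusted p = 0.354). Whether the 3 decorating genes differed from those branch genes was not tested.

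In V. cinerea the direction was upward. Mature berries boxed throughout held AOMT at 77.5 and 104 FPKM, against 2.88 and 10.0 FPKM in sunlight. AOMT2 was at 20.4 and 30.1 FPKM against 1.11 FPKM and near 0, and 3AT at 68.8 and 56.9 FPKM against 14.2 and 18.8 FPKM. Boxed and sunlight libraries did not overlap for any of the 3 genes, but how many of all genes separated in this way was not counted. AOMT was higher by 3.80 (SE 0.96, adjusted p = 0.0131) and AOMT2 by 4.15 (SE 0.73, adjusted p = 0.00115), so that 2 of 3 rose against 7.84% of all genes tested (5.72% with median-ratio scaling). The 3AT difference of 1.88 did not pass (SE 0.93, adjusted p = 0.218). Of the other 9 branch genes 3 rose. These were UFGT (a difference of 4.06, adjusted p = 0.0182), LDOX (2.44, adjusted p = 0.0302) and MYBA1 (1.97, adjusted p = 0.0407). Sunlight replicate 2, which is not doubted, had 38.5% of the V. cinerea private genes on, against 84.6% in both boxed libraries. The sunlight replicate 1 library is doubted. Without it AOMT was higher by 3.04 (adjusted p = 0.139), and the AOMT call was also lost without either boxed library (4.0, adjusted p = 0.0706, and 3.59, adjusted p = 0.108). The AOMT2 call held in all 13 alternatives, with log2 differences from 3.61 to 6.16.

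**Figure D2:**
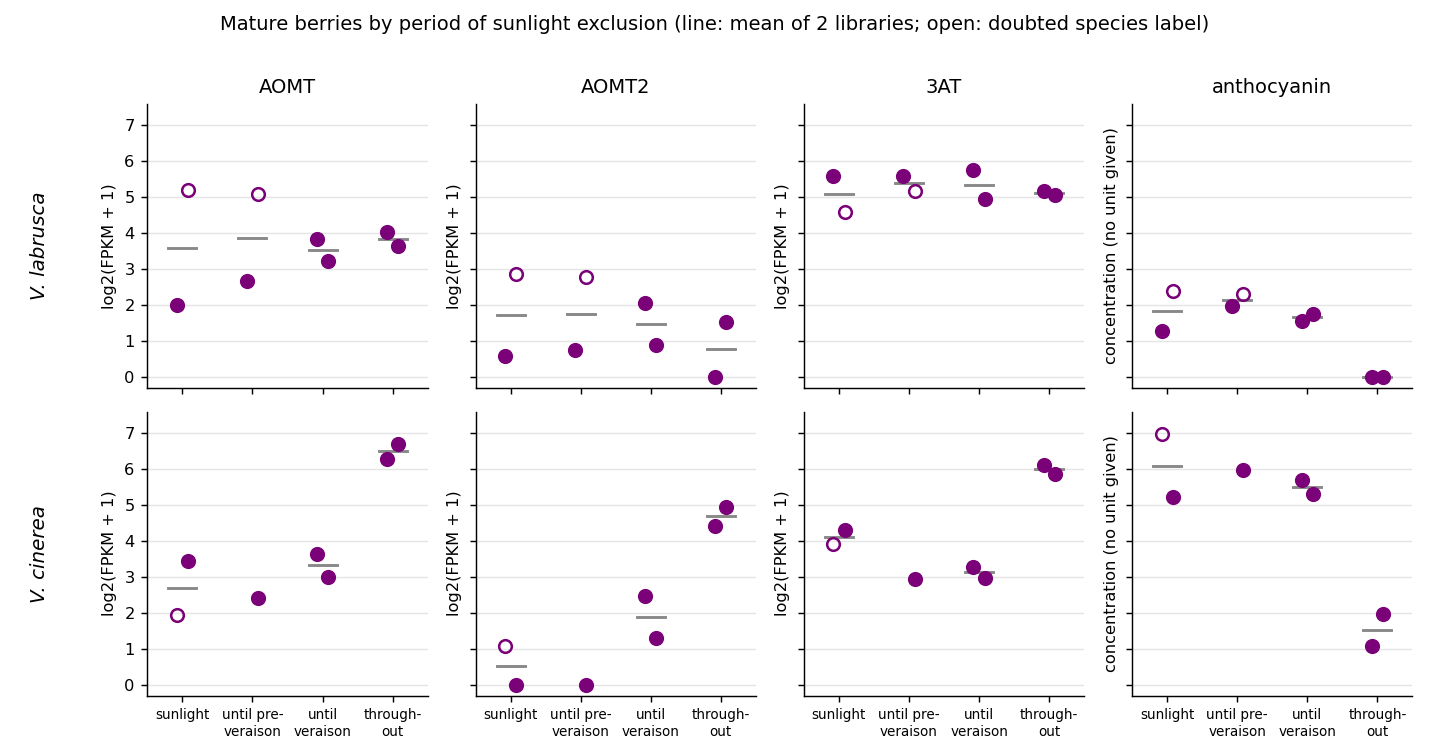
Level of AOMT, AOMT2 and 3AT (FPKM on a log2(FPKM + 1) axis) in each mature V. labrusca and V. cinerea library, by the period of sunlight exclusion. Doubted libraries are marked by open symbols, and a last column shows the anthocyanin concentration of the labels. The V. cinerea libraries boxed throughout stand above the other V. cinerea libraries for each gene, while those of V. labrusca lie within the range of the other V. labrusca libraries for AOMT and 3AT.

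The species were compared on this change directly, in a test added after the values were seen. The V. labrusca minus V. cinerea difference was -5.09 for AOMT2 (SE 1.04, adjusted p = 0.0163), so that 1 of 3 passed as lower against 0.821% of all genes. For AOMT it was -3.55 (SE 1.36, adjusted p = 0.200), and for 3AT it was -1.85 (SE 1.31, adjusted p = 0.557). The AOMT2 call was lost without the doubted V. labrusca sunlight replicate 2 (-3.95, adjusted p = 0.166), without V. labrusca boxed replicate 1 (-4.32, adjusted p = 0.0772), without V. cinerea boxed replicate 1 (-5.36, adjusted p = 0.0556) or replicate 2 (-4.82, adjusted p = 0.0832), and without the 9 doubted libraries (-4.49, adjusted p = 0.0621). The AOMT difference passed without V. labrusca sunlight replicate 1 (-5.15, adjusted p = 0.0281).

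Berries uncovered at pre-veraison or veraison and left to mature were compared with those boxed throughout, which are the same boxed libraries as above. In V. labrusca AOMT was at 5.33, 33.0, 13.3 and 8.43 FPKM in uncovered berries, the second value from a doubted library, around the 15.5 and 11.5 FPKM of the boxed ones. 3AT was at 47.2, 35.1, 53.0 and 29.9 FPKM against 34.7 and 32.1 FPKM, and AOMT2 was at 0.689, 5.82, 3.13 and 0.860 FPKM against near 0 and 1.91 FPKM. The ranges overlapped for each gene. By limma 0 of 3 passed, against 1.14% of genes higher and 4.33% lower (1.57% and 2.37% with median-ratio scaling). None had an unadjusted p under 0.05, while 3755 of all genes did. The differences were 0.26 for 3AT (SE 0.80, adjusted p = 0.951), 0.85 for AOMT2 (SE 0.63, adjusted p = 0.533) and -0.14 for AOMT (SE 0.83, adjusted p = 1), the last 0.10 with median-ratio scaling. In the same comparison 5 of the other 9 branch genes rose, with a median log2 difference of 2.02.

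In V. cinerea uncovered berries all 3 genes were lower than in berries boxed throughout, against 11.7% of all genes (9.31% with median-ratio scaling). AOMT was at 4.32, 11.5 and 6.98 FPKM in uncovered berries and fell by 3.64 (SE 0.90, adjusted p = 0.00708). AOMT2 was near 0 and at 4.52 and 1.48 FPKM and fell by 3.74 (SE 0.69, adjusted p = 0.000681). 3AT was at 6.66, 8.75 and 6.89 FPKM and fell by 2.96 (SE 0.87, adjusted p = 0.0202). Every uncovered library lay below both boxed libraries, whose values are given above, though the share of all genes separated like this was not counted. By limma 6 of the other 9 branch genes fell as well. The AOMT call was lost without boxed replicate 2 (-3.43, adjusted p = 0.0743). The 3AT call was lost without boxed replicate 1 (-2.82, adjusted p = 0.134) or replicate 2 (-3.09, adjusted p = 0.0969), and when V. cinerea was fitted alone (-2.96, adjusted p = 0.0815). None of these libraries is doubted, but they differed in the share of V. cinerea private genes on. Both boxed libraries had 84.6% on, against 23.1%, 30.8% and 38.5% in the uncovered ones. The doubted mature V. acerifolia libraries had 76.9% to 100% of these genes on. Whether this difference bears on the comparison was not tested.

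Across stages, berries still boxed at harvest were compared with sunlight berries within species and stage. In V. labrusca 3AT was also low in boxes at pre-veraison, at 0.253 and 0.642 FPKM against 3.75 and 0.655 FPKM in sunlight, while AOMT2 was listed at 0 in both groups of that stage. The log2 differences were -0.79 for AOMT (SE 0.65, adjusted p = 0.533), -0.68 for AOMT2 (SE 0.61, adjusted p = 0.570) and -0.89 for 3AT (SE 0.56, adjusted p = 0.383). Over the alternatives AOMT ranged from -1.22 to 0.22, turning positive without the doubted, sparse and conflicting libraries, and AOMT2 ranged from -1.33 to -0.041. None of the 3 passed by limma, against 1.39% of genes lower and 4.92% higher (1.91% and 2.61% with median-ratio scaling), and 6 of the other 9 branch genes fell. None of the 3 had an unadjusted p under 0.05, while 4324 of all genes did. In V. cinerea the differences were 0.60 for AOMT (SE 0.73, adjusted p = 0.752), 0.67 for AOMT2 (SE 0.69, adjusted p = 0.687) and -0.39 for 3AT (SE 0.64, adjusted p = 0.831). Veraison and maturity went opposite ways there, with lower AOMT and 3AT in the box at veraison and higher values at maturity. For AOMT and AOMT2 the V. cinerea sign turned without mature boxed replicate 2 (-0.02 each). For 3AT it turned without the veraison boxed library (0.70). In V. acerifolia the differences were -1.16 for AOMT (SE 0.95, adjusted p = 0.686), -0.91 for AOMT2 (SE 0.89, adjusted p = 0.763) and -0.45 for 3AT (SE 0.82, adjusted p = 0.911). Up to veraison AOMT was at most 0.966 FPKM in V. acerifolia, and AOMT2 was listed at 0. The only mature sunlight library of that species, with 54.3 FPKM of AOMT and 17.0 FPKM of AOMT2, is doubted. No member passed by limma or at an unadjusted p under 0.05 in V. cinerea or V. acerifolia, where 0.360% and 0.844% of all genes passed. The genes at an unadjusted p under 0.05 numbered 3173 and 2506. The difference between V. labrusca and V. cinerea passed for 0% of genes (1646 at an unadjusted p under 0.05), and for no member at either threshold.

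**Figure D3:**
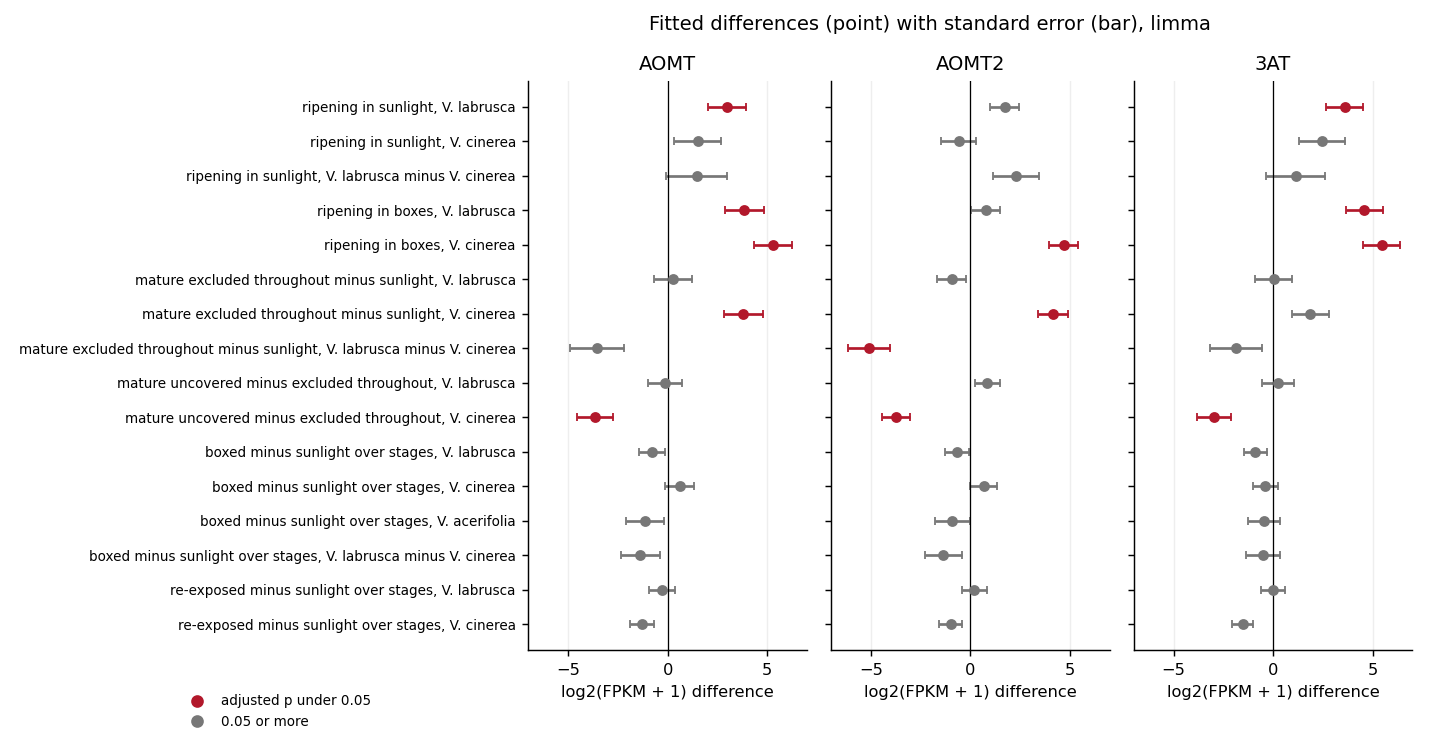
Log2 difference of AOMT, AOMT2 and 3AT (points, with bars of 1 standard error), where red points passed at an adjusted p under 0.05 and grey ones did not. Shown are the comparisons within a species and the differences between V. labrusca and V. cinerea in such changes. The points that passed lie on the positive side for ripening, and on both sides for the mature V. cinerea comparisons with berries boxed throughout. For the species difference in mature boxed against sunlight berries, AOMT2 passed on the negative side.

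Berries re-exposed before harvest were also compared with sunlight berries over stages, and the sunlight libraries are those of the boxed comparison. In V. labrusca the differences were -0.30 for AOMT (SE 0.67, adjusted p = 1) and 0.19 for AOMT2 (SE 0.62, adjusted p = 1). That of 3AT was near 0 (SE 0.58, adjusted p = 1), its sign depending on the scaling (0.06 with median-ratio scaling). By limma 0% of genes passed, with 278 at an unadjusted p under 0.05 and no member among them. In mature V. cinerea the 3 re-exposed libraries, at 6.66 to 8.75 FPKM of 3AT, lay below both sunlight libraries, at 14.2 and 18.8 FPKM, whereas at veraison the groups overlapped for 3AT and AOMT. The differences were -1.31 for AOMT (SE 0.62, adjusted p = 0.405), -0.99 for AOMT2 (SE 0.57, adjusted p = 0.529) and -1.53 for 3AT (SE 0.53, adjusted p = 0.250). All V. cinerea re-exposed libraries taken 2 weeks after veraison are doubted, and so is mature sunlight replicate 1. Over the alternatives, which include leaving out the doubted libraries, AOMT ranged from -1.80 to -0.96. AOMT2 ranged from -1.46 to -0.64 and 3AT from -2.10 to -1.15. No member passed, against 0.0198% of genes. An unadjusted p under 0.05 by limma was found for 2 of 3 members and for 2318 of the 20252 genes tested. Without the V. cinerea veraison library boxed until pre-veraison, replicate 2, 3AT was lower by -2.10 (adjusted p = 0.0438). In V. acerifolia 3AT was at 1.73 FPKM in the re-exposed and 0.801 FPKM in the sunlight library at veraison, and AOMT was listed at 0 in both.

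Each library carries an anthocyanin concentration in its label, given without a unit. In V. labrusca mature berries boxed throughout the concentration was 0 in both libraries, whose 3AT was at 34.7 and 32.1 FPKM and whose AOMT was at 15.5 and 11.5 FPKM. The V. labrusca veraison boxed libraries were also at 0, with 3AT at 41.1 and 21.1 FPKM. Over the 10 V. labrusca libraries with a concentration of 0, 3AT ranged from 0 to 41.1 FPKM and AOMT from 0 to 15.5 FPKM, which overlaps the 22.8 to 121 FPKM and 2.97 to 36.2 FPKM of the 14 libraries above 0. In V. cinerea the 6 libraries with a concentration of 0 held 3AT at no more than 2.15 FPKM and AOMT at no more than 2.81 FPKM. These ranges overlapped those of the 16 V. cinerea libraries above 0, at 0.433 to 129 FPKM of 3AT and 2.08 to 104 FPKM of AOMT. The mature V. cinerea berries boxed throughout, with concentrations of 1.085 and 1.973, lay below the sunlight berries, with 6.968 and 5.22, although their AOMT, AOMT2 and 3AT were higher. In V. acerifolia the 5 libraries up to veraison had a concentration of 0 and at most 0.966 FPKM of AOMT and 2.36 FPKM of 3AT. The 5 later ones held at least 8.69 FPKM of AOMT and 6.25 FPKM of 3AT. No correlation is given, since the values fall into separate groups by stage.

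The balance between acylation and methylation transcripts differed in level between the species labels. From veraison on, 3AT exceeded AOMT in 17 of 18 V. labrusca libraries and in 8 of 17 V. cinerea libraries. Without the doubted libraries it did so in 16 of 16 V. labrusca libraries, with a ratio of 3AT to AOMT from 2.24 to 15.7 (median 3.74), and in 5 of 13 V. cinerea libraries. The V. cinerea ratio ranged from 0.482 to 1.88 (median 0.988) in the 11 of those libraries where both genes reached at least 1 FPKM, below every one of the V. labrusca values. The doubted libraries labelled V. labrusca had ratios of 0.638 and 1.06, below the other V. labrusca values. Of those labelled V. cinerea, the mature sunlight library had 4.91, and the 3 taken 2 weeks after veraison had 0.882, 1.55 and 2.49. In the 5 V. acerifolia libraries after veraison the ratio was 0.251 to 1.66, and the 3 doubted ones among them lay between 0.692 and 0.947. AOMT exceeded AOMT2 in 18 of 18 V. labrusca and 17 of 17 V. cinerea libraries from veraison on, with a median ratio of 5.81 (12 libraries, 3.97 to 20.1) and of 3.63 (14 libraries, 1.33 to 7.96). The ratios were not tested, and how many other pairs of genes separated the species labels in this way was not counted. Reads of 3 species were measured with 1 set of gene models, whose part in differences between species was not tested.

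**Figure D4:**
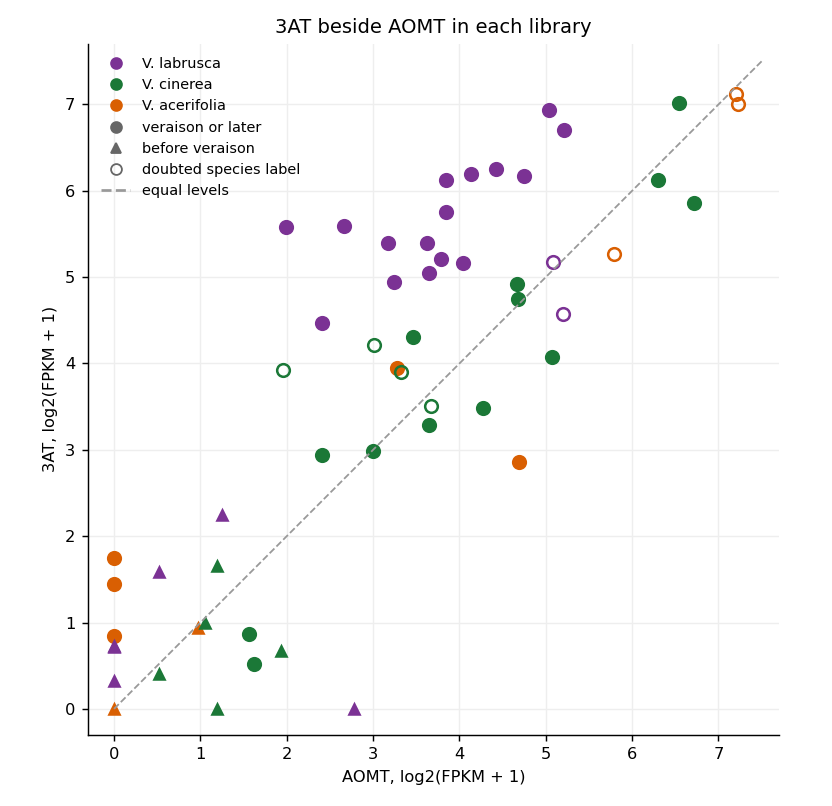
3AT against AOMT (both as log2(FPKM + 1)) in each of the 56 libraries, coloured by species label, with a line of equal levels. Circles are libraries from veraison on, triangles are earlier ones, and open symbols are doubted libraries. From veraison on, V. labrusca libraries lie above the line except for 1 doubted library, and V. cinerea libraries lie on both sides.

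Up to veraison, where all species labels held, the species were compared over pre-veraison and veraison with stage and treatment in the fit. V. labrusca had 3AT at 0.253 to 121 FPKM over these 8 libraries, V. cinerea at 0.325 to 29.2 FPKM over 8 and V. acerifolia at 0 to 2.36 FPKM over 5. 3AT was higher by 1.50 in V. labrusca than in V. cinerea without passing (SE 0.73, adjusted p = 0.108). AOMT2 differed by -0.43 (SE 0.31, adjusted p = 0.288), and AOMT by -0.16 (SE 0.62, adjusted p = 0.865), a sign that turned with median-ratio scaling (0.00876). No member passed by limma in that pair, against 40.7% of all genes. None had an unadjusted p under 0.05, while 9365 of the 19183 genes tested did. Against V. acerifolia, V. labrusca was higher for AOMT (2.10, SE 0.69, adjusted p = 0.0137) and 3AT (2.59, SE 0.80, adjusted p = 0.00963), which is 2 of 3 against 11.4% of genes higher and 49.7% lower (20.6% and 30.8% with median-ratio scaling). AOMT2 of that pair did not pass (adjusted p = 0.0504, from 0.0143 to 0.271 over the alternatives). V. cinerea was higher than V. acerifolia for AOMT (2.26, SE 0.67, adjusted p = 0.0101) and for AOMT2, which V. acerifolia listed at 0 in all 5 libraries (adjusted p = 0.00549), against 12.1% of genes higher and 38.5% lower (19.6% and 23.3% with that scaling). The 3AT difference between V. cinerea and V. acerifolia was 1.09 (SE 0.78, adjusted p = 0.263). V. acerifolia enters with 1 library per group. Without its veraison sunlight library the differences fell to 1.38 (AOMT, adjusted p = 0.0834) and 1.83 (3AT, adjusted p = 0.0585) against V. labrusca and to 1.55 (AOMT, adjusted p = 0.0586) against V. cinerea. Without the doubted, sparse and conflicting libraries the V. labrusca differences were 1.48 (AOMT, adjusted p = 0.121) and 1.74 (3AT, adjusted p = 0.108).

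Set against UFGT, which provides the glucosylated pigment that the 3 enzymes act on, 3AT took different shares in boxed berries. In V. labrusca at veraison and maturity the ratio of 3AT to UFGT was 0.678 to 1.05 in the 4 boxed libraries, 0.174 to 0.369 in the 4 sunlight libraries and 0.168 to 0.314 in the 4 re-exposed ones. The boxed range lay above the others, but so did the ratio to UFGT of 79.2% of the 10225 genes at hand, and UFGT itself was lower in these boxed libraries. In mature V. cinerea the ratio was 0.0509 and 0.0599 in boxed and 0.213 and 0.279 in sunlight berries, and 97.9% of 11901 genes had a lower ratio in boxed berries there. The ratio of AOMT to UFGT overlapped between boxed and sunlight berries in both comparisons. In V. labrusca the overlap rested on the doubted mature sunlight library (0.272), since the other 3 sunlight libraries (0.0234, 0.0600 and 0.121) lay below the boxed ones (0.187 to 0.444). In mature V. cinerea it also rested on the doubted sunlight library (0.0433). The other sunlight library (0.149) lay above both boxed ones (0.0675 and 0.0928).

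The genes most like each member were taken as the 5 with the highest Pearson correlation of log2(FPKM + 1) over the 56 libraries, which share stage and species as sources of variation. For AOMT they were UFGT (r = 0.899), AOMT2 (0.874), MYBA1 (0.860), AM3 (0.851) and 3AT (0.837), of the 20834 genes compared. For 3AT they were MYBA3 (0.924), MYBA2 (0.920), UFGT (0.916), VIT_02s0033g00380 (0.911) and MYBA1 (0.894). For AOMT2 they were AOMT (0.874), VIT_11s0016g05770 (0.794), UFGT (0.783), VIT_06s0009g02860 (0.764) and VIT_00s0929g00020 (0.763). UFGT was thus among the 5 of every member, GST4 ranked 16 for AOMT, 41 for AOMT2 and 11 for 3AT, and DFR ranked 2172, 2685 and 612. The lists depended on the libraries used: over the 22 V. cinerea libraries alone 3, 2 and 4 of the 5 recurred for AOMT, AOMT2 and 3AT, and over the 24 V. labrusca libraries alone 0, 0 and 1. Within V. labrusca UFGT ranked 9 for AOMT (r = 0.852), 164 for AOMT2 (0.714) and 5 for 3AT (0.949).

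AOMT and AOMT2 are numbered close together among the gene models VIT_01s0010g03400 to VIT_01s0010g03550, of which the table lists 14. Of the 12 other models in that run, 4 were listed at 0 in every library, among them VIT_01s0010g03500, whose number lies between those of AOMT2 and AOMT. The highest value of any of the 12 was 17.0 FPKM (VIT_01s0010g03400), which was at least 1 FPKM in all 56 libraries, and the next were 9.59 FPKM (VIT_01s0010g03530) and 6.96 FPKM (VIT_01s0010g03460). AOMT, at up to 149 FPKM, was therefore the model of that run with the highest level, followed by AOMT2 at up to 32.5 FPKM.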

How the data were processed

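Total RNA of berries was sequenced, and the authors deposited 1 table of FPKM values (fragments scaled to transcript length and library total). It was made with TopHat2 2.0.14 and Cufflinks 2.2.1, per the submitters' processing notes. No build of the genome is named in these sources. FPKM holds no counts, so sequencing depth stays unknown and intervals for counting error were not computed. Values were analysed as log2(FPKM + 1) with limma (version 3.58.1, run in R 4.3.3, empirical Bayes moderation with a trend) and Benjamini-Hochberg adjustment over all genes with at least 1 FPKM in at least 2 libraries of a fit, and called at an adjusted p under 0.05. Ripening and mature comparisons came from 1 fit of the 46 libraries of V. labrusca and V. cinerea (20333 genes, with 21 degrees of freedom left). Light status over stages came from 51 libraries (20252 genes, 34 degrees of freedom) and species up to veraison from 21 (19183 genes, 14 degrees of freedom). A group of 1 library was assumed to vary like the others. Fits were tested on simulated data. Stage, species and treatment come from titles and organism entries, since the V. labrusca descriptions name V. cinerea instead. Species-private genes (22, 13 and 271 for V. labrusca, V. cinerea and V. acerifolia) stood 1 log2 unit or more above all other species in each early library. The members and lists were chosen with earlier results of these data known. Named genes were the 3 members, the other 9 genes of the branch where they passed or are set beside a member, and the 5 most like each member; genes of the AOMT run and VIT identifiers beyond these were named after their values were seen. Lists needing gene descriptions (other methyltransferases, acyltransferases, methyl donor supply, seed markers) were not formed, and no sequence was used here. Alternatives were another pseudocount, no filter, median-ratio scaling, a replicate block, a species fitted alone, and libraries left out.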

Additional observations from a re-analysis of the deposited data

Results flagged for a closer look

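The change of AOMT2 in mature berries boxed throughout against sunlight berries differed between the species: the V. labrusca minus V. cinerea difference was -5.09 on the log2 scale (SE 1.04, adjusted p = 0.0163 by limma). It was drawn out by a test of the difference itself, added after the values were seen. Both V. cinerea boxed libraries lay above both sunlight libraries, while in V. labrusca the groups overlapped. A doubted sunlight library stands in each species, and their part in the difference was not tested beyond leaving them out, which gave -4.49 (adjusted p = 0.0621).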

How the results depend on the processing

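The differences below are on the log2 scale, and where a cause is not plain from fewer samples it was not tested. Of 57 results, all 57 kept their direction and their side of the threshold without the filter, without the 3 sparse libraries and with replicate number as a block. The sparse libraries are in no group of the ripening and mature comparisons, where leaving them out could not move a difference, only its spread. Not every pair of groups had same-numbered deviations correlated over 0.1, so replicate numbers were not taken to pair the samples. In V. labrusca 6 of 66 pairs of groups were over 0.1 (median 0.0222, -0.224 to 0.742) and in V. cinerea 15 of 36 (median 0.0701, -0.114 to 0.430). The replicate block cannot move a difference between groups that hold both numbers. In V. cinerea sunlight ripening, where it can, it gave 1.12 for AOMT and 1.91 for 3AT. With a pseudocount of 0.1, AOMT2 passed in V. labrusca sunlight ripening (4.27) and early against V. acerifolia (2.24), while mature V. cinerea AOMT (4.03) and uncovered V. cinerea 3AT (-3.10) no longer passed. Median-ratio scaling shifted the median gene by -0.176 to 0.230 within species, by 0.178 to 0.554 between species up to veraison, and by -0.0368 to -0.00744 in the 3 differences between V. labrusca and V. cinerea in a change. It turned mature V. labrusca 3AT (-0.18), uncovered V. labrusca AOMT (0.10), re-exposed V. labrusca 3AT (0.0595) and early V. labrusca minus V. cinerea AOMT (0.00876), and early AOMT2 against V. acerifolia passed (0.91). Fitting V. cinerea alone lost uncovered 3AT (-2.96). Without the 9 doubted libraries sunlight ripening AOMT in V. labrusca (1.36), mature V. cinerea AOMT (3.04) and the AOMT2 species difference (-4.49) no longer passed, and ripening AOMT between species (-0.90), mature V. labrusca AOMT2 (0.20) and 3AT (-0.47) turned. Without all doubted, sparse and conflicting libraries, a setting added after the data were seen, the values of AOMT (1.36, 3.04 and -0.90), AOMT2 (0.20) and 3AT (-0.47) just given recurred, boxed V. labrusca AOMT turned (0.22), and early AOMT (1.48) and 3AT (1.74) of V. labrusca against V. acerifolia no longer passed. Without the 2 libraries of conflicting stage, re-exposed V. labrusca 3AT turned (0.0832) and early AOMT2 against V. acerifolia passed (0.93).

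Leaving out 1 library at a time gave these ranges. In V. labrusca sunlight ripening they were 1.36 to 4.57 (AOMT), 0.57 to 2.85 (AOMT2) and 2.83 to 4.35 (3AT), in boxes 3.65 to 4.04 (AOMT) and 4.39 to 4.78 (3AT), and between species -0.15 to 3.06 (AOMT). For mature boxed against sunlight V. labrusca they were -1.36 to 1.85 (AOMT), -2.08 to 0.20 (AOMT2) and -0.47 to 0.53 (3AT), for V. cinerea AOMT 3.04 to 4.55, and between species -5.15 to -1.94 (AOMT) and -6.23 to -3.95 (AOMT2). For uncovered berries they were -0.74 to 0.47 (V. labrusca AOMT), -3.85 to -3.43 (V. cinerea AOMT) and -3.09 to -2.82 (V. cinerea 3AT). For boxed berries over stages they were -0.0162 to 1.91 (V. cinerea AOMT), -0.0198 to 1.75 (AOMT2) and -0.92 to 0.70 (3AT), -1.54 to 0.0771 (V. acerifolia AOMT2) and -1.33 to 0.24 (3AT), and -1.59 to 0.0328 between species (3AT). For re-exposed berries they were -0.0436 to 0.53 (V. labrusca AOMT2), -0.22 to 0.11 (3AT) and -2.10 to -1.15 (V. cinerea 3AT). Up to veraison they were -0.43 to 0.0502 (V. labrusca minus V. cinerea AOMT), 1.38 to 2.74 (AOMT), 0.43 to 1.09 (AOMT2) and 1.83 to 2.998 (3AT) against V. acerifolia, and 1.55 to 2.78 (V. cinerea minus V. acerifolia AOMT). Over all alternatives the share of genes called in either direction moved as well. In V. labrusca it was 19.2% (9.56% to 23.9%) for sunlight ripening, 2.40% (0.733% to 4.48%) for ripening in boxes, 4.42% (0.812% to 9.54%) for mature boxed against sunlight, 5.47% (2.14% to 10.4%) for uncovered and 6.31% (0.436% to 8.37%) for boxed berries over stages. In V. cinerea it was 5.37% (1.47% to 9.93%) for ripening in boxes, 10.0% (2.98% to 13.1%) for mature boxed, 16.6% (5.97% to 25.6%) for uncovered, 0.360% (0.0108% to 3.70%) for boxed and 0.0198% (0 to 0.213%) for re-exposed berries over stages. It was 0.844% (0 to 2.51%) for boxed V. acerifolia, and between V. labrusca and V. cinerea 1.50% (0.601% to 3.41%) for ripening, 1.29% (0.0738% to 5.65%) for mature boxed and 0% (to 0.0445%) for boxed berries over stages. Depth is unknown, and values near 0 cannot be told from failed estimates.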
